A study of Caenorhabditis elegans with 2 samples.

Results

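The right arm of chromosome V is described here through the genomic regions that were listed on it in a chromatin immunoprecipitation (ChIP-seq) experiment on Caenorhabditis elegans. The members were all regions of the authors' pooled list whose summit lay on chromosome V at position 15000000 or beyond, counted from 0 in the build ce11, and they numbered 1614 of the 30000 regions listed for the whole genome. They were set against the 1962 regions with a summit from 6000000 to 15000000, called the centre here, and, where it helps, against the 1671 regions below 6000000, called the left arm. The worms were whole hermaphrodite late embryos of the transgenic strain RW10702, taken 3.5 hours after bleaching of eggs had synchronized them. They stably expressed the transcription factor HLH-6 fused at its C-terminus to GFP and FLAG, and sonicated chromatin was precipitated with an antibody against GFP. There were 2 biological replicates of this single group, so no condition was compared with another. Signal from whole embryos cannot tell a factor bound in few cells from a factor bound weakly in many. The lists hold no read counts, so depth is unknown, and the pooled list of 30000 regions was made as input for a reproducibility analysis (IDR), which means that its weaker members are not calls. The stronger set, called optimal here, is the list of 912 regions that IDR kept.

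HLH-6 is a basic helix-loop-helix (bHLH) protein related to achaete-scute factors and required in the pharyngeal glands, and bHLH proteins bind the E-box CANNTG. The chromosomes of C. elegans have gene-dense centres with many conserved and essential genes, and arms that recombine more often and hold more repeats. The arms of chromosome V are known for large, fast-evolving families that arose by duplication, among them the sr and str chemoreceptor genes, which encode G protein-coupled receptors used mainly in sensory neurons, F-box genes of protein degradation and C-type lectins of the innate immune response. The right arm also holds the tandem cluster of 5S ribosomal RNA and SL1 spliced leader genes.

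Of the optimal regions, 26 had their summit on the right arm. The 101 bases around the summit are printed for 8 of these regions: 6 at tRNA or snoRNA genes, the soft-masked window at Y32B12B.4 and the window richest in GC, in an intron of srh-296. The sequences are from the plus strand of the NCBI genome WBcel235 (ce11), written 5′ to 3′. Capitals mark GTTCNANNC, the core of the B box, an internal promoter element of tRNA genes, on either strand. The printed snoRNA windows lie mostly outside the annotated genes, which end at 15873926 (T06C12.16), 19643187 (Y43F8C.22) and 15191093 (Y75B12B.12). At Y43F8C.22 and Y75B12B.12 the capitals stand outside the annotated gene. The motif GTTCNANNC was chosen after the windows had been seen. It was in 6 of the 12 optimal windows at tRNA or snoRNA genes, so the printed ones show it more often than the set does.

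T06C12.16 snoRNA gene, V:15873924-15874024: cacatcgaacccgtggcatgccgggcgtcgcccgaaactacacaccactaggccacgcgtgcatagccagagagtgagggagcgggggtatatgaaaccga
Y43F8C.22 snoRNA gene, V:19643181-19643281: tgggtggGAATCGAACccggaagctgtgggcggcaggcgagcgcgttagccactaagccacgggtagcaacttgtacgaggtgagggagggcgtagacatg
Y75B12B.12 snoRNA gene, V:15191088-15191188: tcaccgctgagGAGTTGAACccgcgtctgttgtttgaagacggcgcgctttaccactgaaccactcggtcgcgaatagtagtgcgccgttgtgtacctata
T03E6.t1 tRNA gene, V:16592224-16592324: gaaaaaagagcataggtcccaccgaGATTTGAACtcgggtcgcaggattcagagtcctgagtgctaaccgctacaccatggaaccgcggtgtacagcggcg
Y116F11A.t1 tRNA gene, V:19723004-19723104: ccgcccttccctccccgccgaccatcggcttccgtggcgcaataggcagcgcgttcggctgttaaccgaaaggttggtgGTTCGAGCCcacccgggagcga
F53F8.t1 tRNA gene, V:20694132-20694232: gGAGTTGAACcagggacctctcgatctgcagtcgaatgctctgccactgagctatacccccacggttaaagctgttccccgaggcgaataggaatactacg
Y32B12B.4 promoter, V:16553036-16553136: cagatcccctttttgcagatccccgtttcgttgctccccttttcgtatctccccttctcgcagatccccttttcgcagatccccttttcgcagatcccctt
srh-296 intron, V:17812315-17812415: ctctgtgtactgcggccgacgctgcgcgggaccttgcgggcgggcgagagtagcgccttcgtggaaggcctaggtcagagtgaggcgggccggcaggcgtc

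The next windows are printed because they are examples of the 6 optimal regions of the arm that held an E-box, whose letters stand in capitals.

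fib-1 and mut-15 promoter, V:15002297-15002397: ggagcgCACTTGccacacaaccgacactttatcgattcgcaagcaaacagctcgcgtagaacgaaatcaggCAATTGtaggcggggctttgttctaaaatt
Y59A8B.24 promoter, V:17951405-17951505: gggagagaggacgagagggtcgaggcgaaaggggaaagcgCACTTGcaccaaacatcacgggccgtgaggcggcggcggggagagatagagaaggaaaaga
F40D4.14 pseudogene, V:17151520-17151620: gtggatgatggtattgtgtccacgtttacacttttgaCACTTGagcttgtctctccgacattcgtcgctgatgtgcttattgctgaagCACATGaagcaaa

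Regions were listed more densely on the right arm than in the centre, and the reverse held for the optimal regions. The arm, 5.92 Mb long, held 272 pooled regions per Mb against 218 in the centre, 278.5 on the left arm and 312 on the other chromosomes. The rate ratio of the right arm to the centre was 1.25 (95% interval 1.17 to 1.34, two-sided exact test, adjusted p = 2.83e-10 over the 7 comparisons made). Replicate 1 listed 1568 regions on the arm, 265 per Mb against 233 in the centre, and replicate 2 listed 1621, 274 per Mb against 224, so both gave the direction of the pooled list. The 26 optimal regions came to 4.39 per Mb against 8.11 for the 73 of the centre, a rate ratio of 0.541 (0.332 to 0.857, the same exact test, adjusted p = 0.0101), with 4.17 per Mb on the left arm and 9.93 on the other chromosomes. This ratio did not pass the test among the 456 strongest optimal regions (0.807, 0.420 to 1.50) or per base that is not soft-masked (0.672, 0.397 to 1.10). Of the pooled regions of the arm, 36 (2.23%, 1.57 to 3.07) overlapped an optimal region by at least 1 bp, against 99 (5.05%) in the centre and 4.3% of the pooled regions of the whole genome. The odds ratio between arm and centre was 0.429 (0.283 to 0.639, two-sided Fisher's exact test, adjusted p = 1.50e-05). This odds ratio draws on the regions already counted in the 2 densities and is not separate support for them. Regions are not replicates and neighbours are not independent, so these intervals and p-values cover the counting of listed regions only.

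Along the arm the pooled regions became denser towards the end of the chromosome. The 6 bins of up to 1 Mb, from the boundary to the end, held 195, 244, 273, 266, 336 and 300 regions, and the last bin, 0.924 Mb long, had 325 per Mb. Replicate 1 held 213, 237, 249, 276, 305 and 288 in the same bins, and replicate 2 held 211, 263, 256, 271, 326 and 294. The lowest value was in the bin next to the boundary in all 3 lists, and the highest count in the fifth bin. Protein-coding genes went the other way, with 322, 299, 210, 187, 182 and 176 genes annotated per bin, and the soft-masked (repeat) share of the bases was 30%, 32.3%, 33.2%, 47.7%, 45.9% and 41.1%. The optimal regions showed no such order, with 9, 3, 5, 1, 6 and 2 per bin. The part of gene density and repeats in these counts was not tested.

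**Figure D1:**
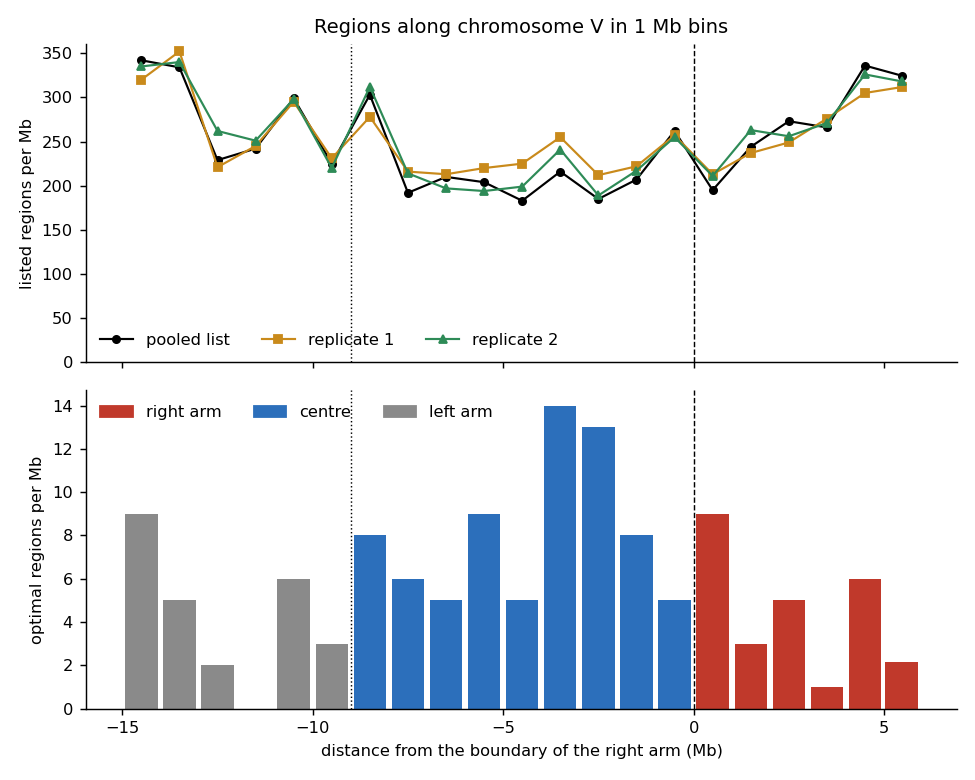
Listed regions per Mb in 1 Mb bins along chromosome V, plotted by distance in Mb from the boundary of the right arm (dashed line; dotted line, boundary of the left arm). The upper panel shows the pooled list and both replicates, which run from 195 to 336 per Mb for the pooled list on the right arm, and the lower panel shows the optimal regions, at most 9 per bin on the arm.

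The excess of the arm lay among the weak regions. Ranked by the authors' signal value, a score of each region's own with no stated scale, the arm took 2.85% of ranks 1 to 912, 3.30% of ranks 913 to 3000, 5.04% of ranks 3001 to 10000, 5.40% of ranks 10001 to 20000 and 6.26% of ranks 20001 to 30000, where it is 5.91% of the genome. In regions per Mb these classes held 4.39, 11.6, 59.6, 91.2 and 105.7 on the right arm, and 8.11, 14.8, 49.9, 68.2 and 77.0 in the centre. The right arm was thus below the centre in both classes of the 3000 strongest regions and above it in the 3 classes below them. The first class holds the same chromosome V regions as the optimal list, so its densities repeat those given above. Among the 3000 strongest regions alone the rate ratio was 0.701 (0.544 to 0.898), and among the 10000 strongest it was 1.04 (0.919 to 1.17), so the direction of the density comparison depends on how far down the list regions are counted. The left arm was close to the right in the strongest class, with 4.17 per Mb, but held 18.7 per Mb at ranks 913 to 3000. Pooled signal values on the right arm ran from 22.5 to 484 with a median of 32.6 and quartiles of 26.4 and 41.8. The median was 33.3 in the centre, where the upper quartile was 45.4.

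**Figure D2:**
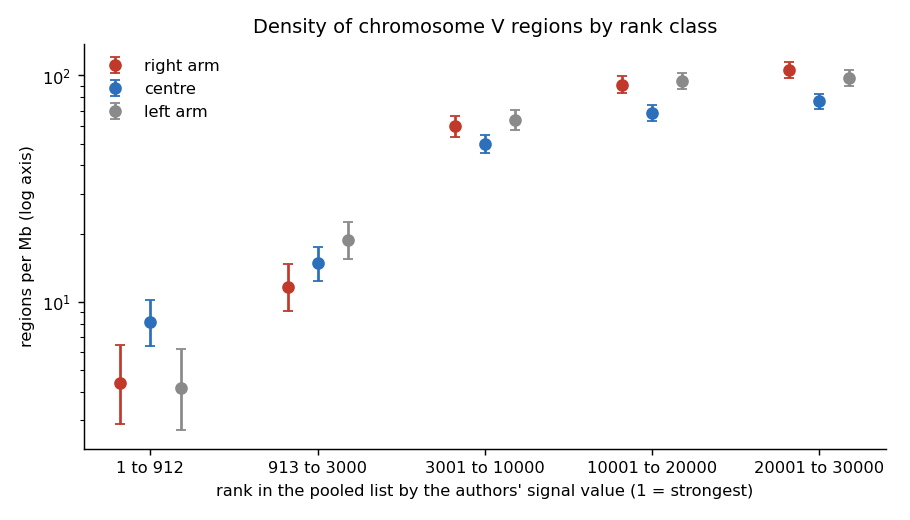
Regions per Mb (log axis) in 5 classes of rank in the pooled list, rank 1 being the strongest signal value, for the right arm, the centre and the left arm. Points are densities and bars exact 95% Poisson intervals that cover the counting of regions only, and the right arm passes from 4.39 per Mb, below the 8.11 of the centre, to 105.7 per Mb, above the 77.0 of the centre.

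The strongest regions of the arm lay at genes of short structured RNAs. Of the 26 optimal summits, 12 lay no more than 200 bp from a tRNA or snoRNA gene, 8 at tRNA and 4 at snoRNA genes, and these 12 were all among the 14 strongest. None of the other 12 optimal regions was that close to one. In the centre 15 of 73 optimal summits were that close to a short RNA gene (tRNA, snoRNA or snRNA), and that class had 61 members on the right arm, 88 in the centre and 24 on the left arm. The median signal value was 141 at the 12 regions of the right arm and 94.4 at its other 14. Strong regions at such genes were not particular to the arm. In the centre the highest pooled value, 678, lay in the promoter window of a snoRNA gene, and those of tRNA genes reached 496.

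The strongest region of the arm, at rank 10 of the whole pooled list, had a signal value of 484 in the pooled list, 249 in replicate 1 and 234 in replicate 2. Its summit lay beside the snoRNA gene T06C12.16 (V 15873855 to 15873926, minus strand), 1401 bp downstream of the start of str-56, a chemoreceptor gene. snoRNAs guide the chemical modification of ribosomal and other RNAs. The region at Y43F8C.22, a snoRNA gene in an intron of Y43F8C.7, which encodes a subunit of the membrane protein insertion complex of the endoplasmic reticulum, had 438, 204 and 226 in the same 3 lists. Values at Y75B12B.12 were 239, 116 and 119, and at W08G11.6 they were 131, 61.1 and 74.9. All 4 snoRNA regions ranked 327 or better in each replicate list, and of the remaining 5 snoRNA genes of the arm Y51A2D.40 alone had a pooled summit that close, of 25. A promoter window covered 1000 bp before and 200 bp after each annotated transcription start.

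Of the 36 tRNA genes of the arm, 20 had a pooled summit within 200 bp, 17 a summit of replicate 1 and 19 a summit of replicate 2. In their promoter windows, 61.1% had a pooled summit, against 62.5% of 32 tRNA genes in the centre and 90% of 10 on the left arm. An optimal summit lay there for 25% on the right arm, 25% in the centre and 10% on the left arm. tRNAs carry amino acids to the ribosome and their genes are read by RNA polymerase III. The strongest was F28F8.t3, a tRNA-Asp gene inside the acetylcholine receptor gene acr-18, with signal values of 202 in the pooled list, 102 in replicate 1 and 96.2 in replicate 2. A tRNA-His gene in the same host, F28F8.t2, had 127, 55.4 and 67.4. The convergent pair T23F1.t1 (tRNA-Lys) and T23F1.t2 (tRNA-Pro) shared 1 summit with 174, 99.7 and 80.6, which also lay in the promoter windows of pqn-71, a gene for a glutamine- and asparagine-rich protein, and rocf-1. The tRNA-Gln gene T03E6.t1 had 151, 67.7 and 84.1 and lay in the promoter window of the chemoreceptor gene srh-269. The other optimal tRNA regions were those of C06B8.t3 (tRNA-Gly, 130 pooled), Y39B6A.t9 (tRNA-Phe, 119), Y116F11A.t1 (tRNA-Asn, 115) and F53F8.t1 (tRNA-Cys, 115).

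tRNA genes for the same amino acid differed in whether they were listed. The 3 tRNA-Asp genes W06G6.t1, W06G6.t2 and W06G6.t3 had no summit within 200 bp in any of the 3 lists, unlike F28F8.t3. Of the 8 tRNA-Asn genes, Y116F11A.t1 was at 115 and Y38H6A.t1 at 23.3 in the pooled list. F57G8.t2 had a summit in replicate 1 alone (21.2) and K02E2.t1 in replicate 2 alone (27.6). T09F5.t1, F57G8.t1, F57G8.t3 and F57G8.t4 had none in the 3 lists. tRNA genes have near-identical copies elsewhere in the genome, and how the authors treated reads that map to several copies is not given in the sources used here, so a missing region at such a gene is uncertain.

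**Figure D3:**
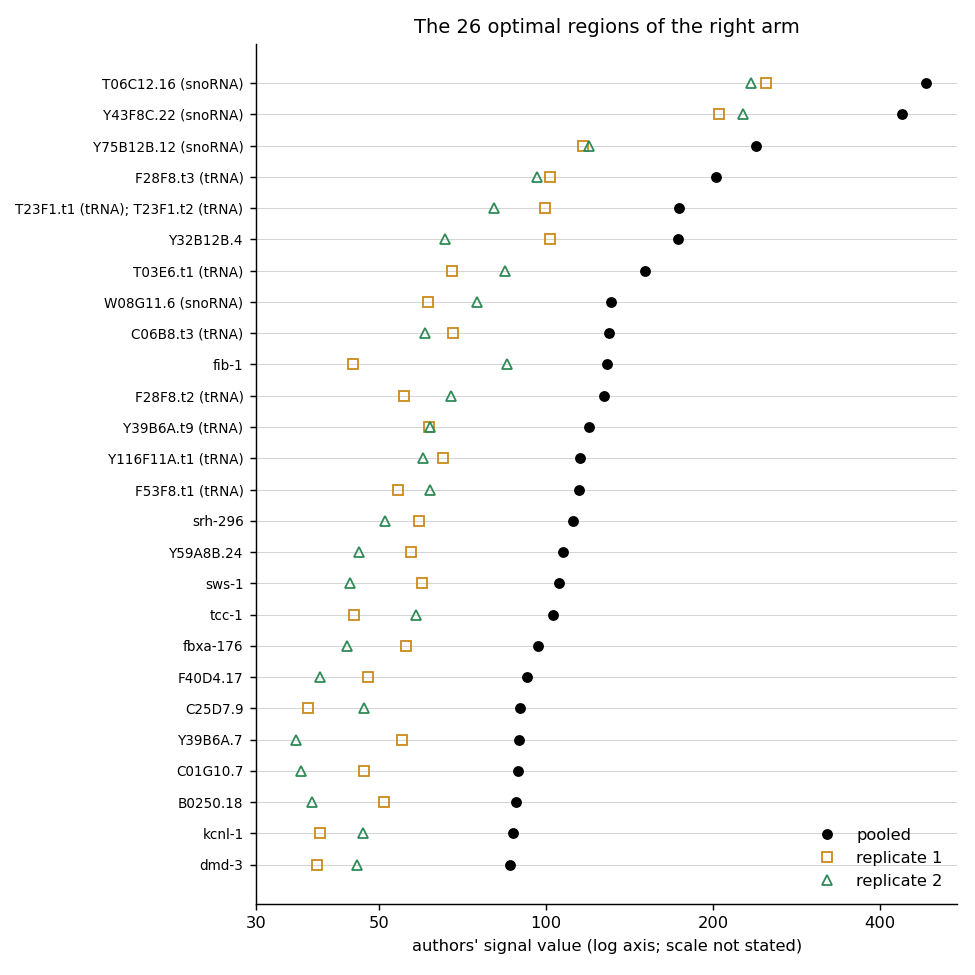
Authors' signal value (log axis) of the 26 optimal regions of the right arm, in the pooled list (filled circles), replicate 1 (squares) and replicate 2 (triangles), named by the short RNA gene within 200 bp or else by the coding gene with the nearest start. The scale of the values is not stated, and the snoRNA regions at T06C12.16 and Y43F8C.22 stand highest in all 3.

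The 14 remaining optimal regions of the arm included 8 in the promoter window of a coding gene. The region between fib-1 and mut-15, 2346 bp inside the boundary of the arm, had signal values of 129 in the pooled list, 44.9 in replicate 1 and 84.9 in replicate 2, ranks 948 and 134 of the replicate lists. fib-1 encodes fibrillarin, the methyltransferase of box C/D snoRNA particles, and mut-15 encodes a protein of the mutator complex of small RNA silencing. At Y32B12B.4 the values were 173, 102 and 65.8, in a region 172 bp wide whose window, printed above, was soft-masked throughout and consists of near-repeats of a short unit. The shared promoter of sws-1 and mrps-35, the latter a gene for a mitochondrial ribosomal protein, had 105, 59.6 and 44.3. C01G10.7 and ahsa-1, a gene for an activator of the chaperone Hsp90, shared a region with 88.9, 46.9 and 36.1.

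Other optimal regions in coding promoter windows were at Y59A8B.24 (107 pooled, 56.9 in replicate 1 and 45.9 in replicate 2), at the F-box gene fbxa-176 (96.6, 55.9 and 43.6), at C25D7.9 (89.5, 37.3 and 47.0) and at kcnl-1, a gene for a calcium-activated potassium channel (87.2, 39.1 and 46.8). The F-box summit also lay inside the span of the pseudogene C38D9.12. The 6 regions outside such windows and away from short RNA genes were in an intron of the chemoreceptor gene srh-296 (112 pooled), upstream of tcc-1 (103), in the pseudogene F40D4.14 (92.2, nearest coding gene F40D4.17), in an intron of Y39B6A.7 (89.3), in the untranslated part of the chemoreceptor gene srd-70 (88.3, nearest start that of B0250.18) and 6337 bp upstream of dmd-3, a gene of the doublesex and mab-3 family of sexual development (85.9).

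All 26 optimal regions overlapped a region in the list of each replicate. IDR had kept them for reproducibility, and the optimal regions of the centre and the left arm all overlapped both lists too. Of the 26 on the right arm, 21 overlapped one of the 912 strongest of replicate 1, 16 one of the 912 strongest of replicate 2 and 14 both. The pooled signal value lay between 0.921 and 1.07 times the sum of the 2 replicate values in these 26 regions, so it is not independent of them.

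The cluster of 5S ribosomal RNA and SL1 genes at V 17115903 to 17131456 was almost empty of regions. SL1 is the leader that trans-splicing joins to the front of many worm messenger RNAs. Within its 15554 bp, which hold 14 annotated rRNA genes and 11 snRNA genes of the spliced leader class, 1 pooled region was listed, with a signal value of 29.3, where the mean density of the arm would give 4.24. Replicate 1 listed 0 regions there and replicate 2 listed 1. The cluster is repeated in tandem, so the treatment of reads that map to several copies bears on this count as well. Of the 16 snRNA genes of the arm, 2 had a pooled summit within 200 bp, F11A5.14 with 42.1 and T10H4.16 with 40.5. None of the 6 microRNA genes had one within 200 bp, although mir-257 had a summit of 53.0 in its promoter window.

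Taking all pooled regions, the share at a distance of up to 200 bp from these short RNA genes was 1.86% on the right arm (30 regions, 1.26 to 2.64%) and 2.50% in the centre (49 regions). Such bases make up 0.487% of the right arm and 0.488% of the centre. The odds ratio of 0.739 (0.451 to 1.19) did not pass the two-sided Fisher's exact test (adjusted p = 0.245), and it was on the other side of 1 among the 10000 strongest (1.02) and the 3000 strongest regions (1.61, 0.712 to 3.53). With the boundary at 16 Mb it was 0.379 (0.204 to 0.668) and passed.

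By annotation, 568 of the 1614 summits of the arm (35.2%, 32.9 to 37.6) were in coding sequence, which makes up 23.5% of its bases. Introns held 473 summits (29.3%, against 30.6% of the bases), intergenic sequence 425 (26.3% against 34.7%), pseudogenes and other RNA genes 93 (5.76% against 7.18%) and untranslated parts of coding genes 47 (2.91% against 3.87%). In the centre coding sequence held 35.8% of the summits and 30% of the bases, introns 20.5% and 25.1%, and intergenic sequence 27.5% and 35.5%. Coding sequence was above its share of bases, and intergenic sequence below it, in both segments. As 1 class, pseudogenes and other RNA genes were below their share of bases on the right arm. In the centre the class was above it (8.97% of summits, 3.71% of bases). Pseudogene bodies alone were below it in both, with 8.12% of summits and 10.3% of bases on the right arm. In the centre they held 0.917% and 2.94%.

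**Figure D4:**
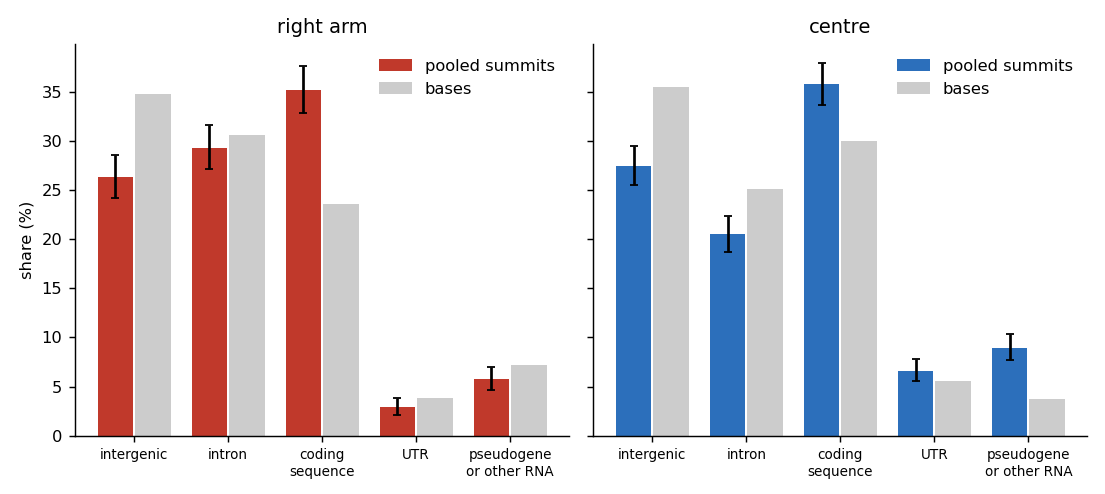
Share of the pooled summits (coloured bars, with exact 95% binomial intervals that cover the counting of regions) and of the bases (grey bars) in 5 classes of annotation, for the right arm and the centre. Coding sequence holds 35.2% of the summits of the right arm and 23.5% of its bases, and intergenic sequence 26.3% and 34.7%.

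Summits lay in repeats less often than windows of the arm in general. Of the 101 bp windows around the pooled summits of the arm, 257 (15.9%) were soft-masked over more than 50% of their length, against 34.2% of all windows of that length tiled along the arm. The shares in the centre were 5.61% and 18.9%, and those on the left arm 16.3% and 35.1%. The median GC content was 44.6% in the summit windows of the arm, 54.5% in its 26 optimal windows and 35.6% in the tiled windows. The window with the most GC among the optimal regions was that in srh-296, at 71.3%.

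Promoter windows of coding genes held a smaller share of summits on the right arm than in the centre, with the left arm between, at 29.6%. They took 409 summits (25.3%, 23.2 to 27.5) against 660 in the centre (33.6%, 31.5 to 35.8), an odds ratio of 0.670 (0.577 to 0.777, two-sided Fisher's exact test, adjusted p = 2.33e-07). Among the 3000 strongest regions it was 0.384 (0.217 to 0.669). These windows cover 27.4% of the bases of the right arm and 31.5% of the centre, so the summits of the arm were slightly below the share of bases and those of the centre slightly above it. The interval of the arm, 23.2 to 27.5, included its share of bases. Of the 69 regions of the arm at ranks 913 to 3000, 15 (21.7%) were in a promoter window, against 62 of 133 (46.6%) in the centre.

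Counted by genes, 366 of the 1376 protein-coding genes of the arm (26.6%, 24.3 to 29.0) had a pooled summit in the promoter window, against 25% in the centre, 29.6% on the left arm and 36.0% of the coding genes of the whole genome. Replicate 1 placed a summit at 367 of these genes and replicate 2 at 380, with 223 in common. An optimal summit lay in the promoter window of 15 genes of the arm (1.09%), against 54 (2.40%) in the centre and 2.5% of the coding genes of the whole genome. None of the listed pharyngeal gland genes, the known setting of HLH-6, is on the right arm.

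The share of genes with a promoter summit was low for the largest family of the arm. Chemoreceptor genes made up 312 of the 1376 coding genes, and 46 of them (14.7%, 11.0 to 19.2) had a pooled summit in the promoter window, 50 in replicate 1 and 51 in replicate 2. The corresponding share was 5.11% of 235 genes in the centre and 17.2% of 343 on the left arm. F-box genes stood at 23 of 74 (31.1%, 20.8 to 42.9), with 19 in replicate 1 and 16 in replicate 2. C-type lectin genes stood at 13 of 54 (24.1%, 13.5 to 37.6), with 8 and 14, and nuclear hormone receptor genes at 10 of 48 (20.8%, 10.5 to 35.0), with 10 and 11. The intervals of the lectin and nuclear hormone receptor genes overlapped those of the chemoreceptor and F-box genes. Coding genes in none of the lists stood at 265 of 867 (30.6%), and pseudogenes at 100 of 492 (20.3%) against 6.15% of 195 in the centre. These families hold similar copies that can share reads, and the lists were not tested against each other.

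Within the chemoreceptors the srh family had a pooled promoter summit at 19 of 98 genes, str at 10 of 56, srw at 7 of 47, srbc at 2 of 24 and srz at 1 of 25. The strongest was that of srh-269, at 151, which is the tRNA region of T03E6.t1 described above and the single optimal summit in a chemoreceptor promoter on the arm. Next came str-198 with 65.3 pooled, 40.3 in replicate 1 and 22.5 in replicate 2, and srbc-79 with 56.6, 30.5 and 22.0. The str-198 summit lay in the coding sequence of another gene, ZK285.2, 357 bp from the start of that gene. srw-33 had 54.3 in the pooled list and 42.8 in replicate 2, and no region of replicate 1 overlapped it. Apart from the tRNA region, then, chemoreceptor promoters of the arm held values of at most 65.3, below the 85.6 at which the optimal list begins.

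Among the F-box genes, fbxa-176 had the optimal region given above. fbxb-60 followed with 47.4 in the pooled list, 19.3 in replicate 1 and 29.7 in replicate 2, then fbxa-153 with 46.3, 14.6 and 31.3, and fbxb-64 with 40.6, 15.1 and 22.4. No gene of the next families had an optimal promoter summit on the arm. nhr-95 had 57.6, 42.3 and 16.2, at a summit shared with the pseudogene Y39B6A.t7, and nhr-193 had 42.9, 21.2 and 27.0. The lectin genes clec-42 and clec-251 had 50.6 and 49.7 in the pooled list, the former at a summit in an intron of clec-246. The 4 histone genes of the arm all had a pooled promoter summit, with his-1 and his-2 sharing 1 of 46.0. Of 3 ribosomal protein genes, rpl-2 had one, of 47.7, which lay in the untranslated part of calf-1. rps-16 had its region in the coding sequence instead. Smaller lists gave gst-38 (56.1, in the coding sequence of F35E8.9), bath-36 (47.6), col-42 (29.2) and cyp-33D3 (27.2), while the 1 UDP-glucuronosyltransferase gene had none.

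**Figure D5:**
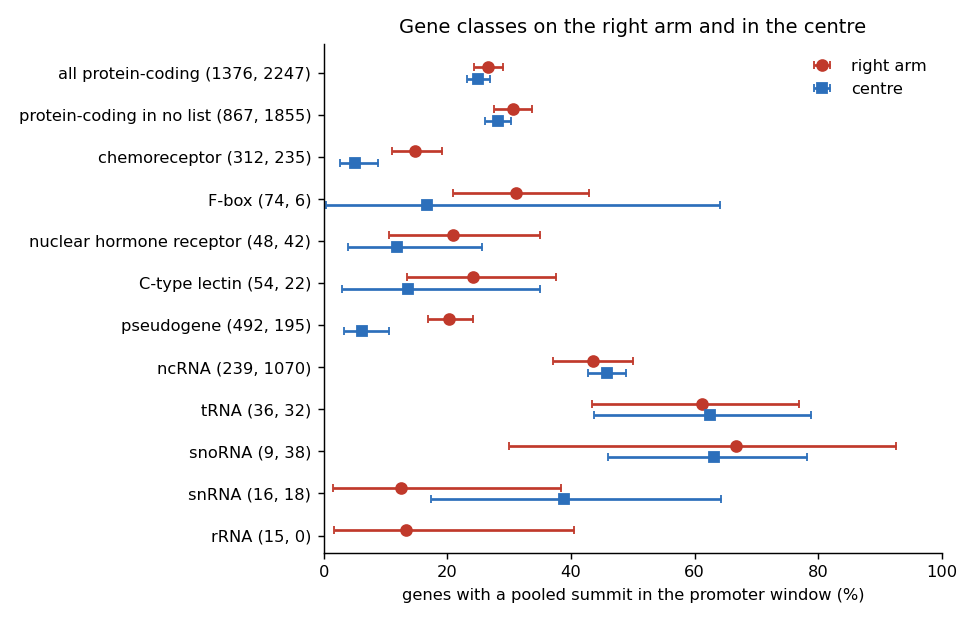
Share of the genes of each class with a pooled summit in the promoter window on the right arm and in the centre, with exact 95% binomial intervals that cover the counting of genes; the numbers beside each class are its genes on the arm and in the centre. Chemoreceptor genes are at 14.7% on the right arm and 5.11% in the centre, and all protein-coding genes at 26.6% and 25%.

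Gene bodies of the arm families also held regions. The bodies of chemoreceptor genes, introns included, contained 120 summits of the arm, 218 per Mb of such sequence, against 49.7 per Mb in the centre and 154 on the left arm. For nuclear hormone receptor genes the densities were 321 per Mb on the right arm and 59.2 in the centre, for C-type lectin genes 390 and 57.8, and for pseudogenes 214 and 68.1. Set against the 272 per Mb of the whole arm, chemoreceptor and pseudogene bodies were below it, as were F-box bodies (157 per Mb, 22 summits). Bodies of lectin and nuclear hormone receptor genes were above it. For the latter the interval of the summit share (2.42%, 1.72 to 3.29) included the share of bases, 2.05%. On the left arm, with 278.5 per Mb as a whole, nuclear hormone receptor bodies held 233 and lectin bodies 479. The densities of nuclear hormone receptor and lectin bodies rest on 39 and 38 summits on the right arm, and on 5 and 3 in the centre.

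The widest stretches without a pooled summit lay near the boundary and were rich in chemoreceptor genes. The widest ran for 87352 bp from V 15199093 to 15286445 and held 35 coding genes, of which 20 were chemoreceptor genes, among them a run of srw genes. Replicate 1 listed 6 summits in it and replicate 2 listed 5, so the stretch was sparse but not empty in the single replicates. The next spanned 59903 bp from 15791888 to 15851791, with 12 chemoreceptor genes among 23, and 53118 bp from 15933183 to 15986301, with 10 among 16. Chemoreceptor genes are 312 of the 1376 coding genes of the whole arm.

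At the other extreme, 3 windows of 20 kb held 17 pooled summits each, where the median over the 296 windows of the arm was 5 and 25 windows held none. They lay at V 18838016 to 18858015, with nhr-65, nhr-230 and wars-1, a tryptophanyl-tRNA synthetase gene, at 19502263 to 19522262, with the collagen prolyl hydroxylase gene phy-4, and at 19613565 to 19633564, with nlp-26 and dyf-19, a gene of ciliated neurons. Replicate 1 listed 13, 18 and 13 summits in them and replicate 2 listed 11, 14 and 15. None held an optimal region, and their strongest pooled values were 64.0, 63.5 and 55.0. The soft-masked share of the bases was 50.3%, 34.2% and 47.3%.

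E-boxes were less frequent at the summits of the arm than at those of the centre. CANNTG, which reads the same on both strands, was found within 50 bp of 535 summits (33.1%, 30.9 to 35.5) on the right arm and of 796 (40.6%, 38.4 to 42.8) in the centre, an odds ratio of 0.726 (0.632 to 0.835, two-sided Fisher's exact test, adjusted p = 1.22e-05). On the left arm the share was 32.9%, close to that of the right. Windows tiled along the right arm and the centre held an E-box in 30.6% and 35.7% of cases. Windows centred 500 bp to either side of the summits held one in 30.7% and 34.4%, so the background differed in the same direction. The odds ratio over those flanks was 0.844 (0.763 to 0.933), and among the 10000 strongest regions that of the summits did not pass (0.770, 0.591 to 1.00), while among the 3000 strongest it was lower and passed (0.456, 0.244 to 0.828). The 26 optimal windows held one in 6 cases (23.1%), of which 2 were at tRNA genes. The other 4 were those of fib-1, Y59A8B.24, F40D4.14 and C25D7.9.

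Other short motifs, sought on both strands in the same windows, are given as shares of the summits of the arm with the share of tiled windows after each. TTAGGC, the unit of the worm's telomere repeat, was in 6.51% of summit windows against 3.68%, while the centre had 1.63% and 1.54%. The left arm had 4.91% and 3.10%. Windows 500 bp to either side of the right arm's summits held it in 4.52% of cases. GAGAGA was in 6.51% against 4.00%, with 12.4% and 5.66% in the centre, and CACACA in 4.83% against 3.99%, with 8.10% and 4.22% in the centre. TGATAA, a form of the site of GATA factors, was below the tiled share in both segments, at 4.83% against 9.06% on the arm and 6.68% against 10.6% in the centre. Of the E-box forms, CACGTG was at 2.66% against 1.55%, CAGCTG at 2.85% against 1.84% and CATATG at 1.67% against 1.84%. The B box core GTTCNANNC was in 5.27% of the summit windows of the arm and 3.96% of the tiled ones, and in 7 of the 26 optimal windows (26.9%). Of these 7, 6 were among the 12 at short RNA genes, and the seventh was the fib-1 and mut-15 window. tRNA genes carry this element, so its presence in windows that overlap them is no separate result. The optimal windows of the centre held it in 9.59% of cases and those of the left arm in 12%.

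The replicates shared most, not all, of the arm's regions. Of the 1614 pooled regions, 907 (56.2%, 53.7 to 58.6) overlapped a region in the list of each replicate, 300 one in replicate 1 alone, 335 one in replicate 2 alone and 72 neither. The share was 57.8% in the centre (odds ratio 0.937, 0.818 to 1.07, two-sided Fisher's exact test, adjusted p = 0.342) and 60.6% over the whole pooled list. With only the 3000 strongest regions of each replicate list, the odds ratio was 0.501 (0.363 to 0.684). That setting kept all pooled regions as the denominator, and the arm holds 95 of the 3000 strongest pooled regions against 206 in the centre. The ratio is thus not separate from the rank counts above. The share that overlapped both lists fell with rank on the right arm, from 100% of the 2 strongest classes to 91.8%, 61.7% and 24.8% of the 3 weaker ones. In the centre the same 5 classes stood at 100%, 99.2%, 88.9%, 56.8% and 26.1%. The strongest class holds the 26 optimal regions of the arm, which IDR had kept for reproducibility. Among the 907 regions, the signal values of the replicates had a Spearman correlation of 0.36, a description over sites that share their libraries, and it was 0.44 over the 1134 such regions of the centre.

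The boundary itself is a round number, not a feature of the chromosome. The last 3 regions outside it had summits at 14992402, 14994363 and 14994563, in T01C3.3 and fil-1, with signal values of 35.4, 39.9 and 28.2. The 3 regions just inside it were at 15000311 in the coding sequence of rps-16 (55.0), at 15001571 in that of fib-1 (59.2) and at 15002347 in the fib-1 and mut-15 promoter (129). The last region of the chromosome had its summit at 20918592 in pbo-5, a gene for a proton-gated channel, with a signal value of 24.3, and 5588 bp remained to the end.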

How the data were processed

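Region lists in narrowPeak layout were used for 2 replicates, the pooled alignments and the optimal set, all made by the authors with a control that was not analysed here, per the README texts beside the lists. The authors' signal value is a deposited score, and a −log10 q-value was deposited for each region. How reads were mapped and filtered, how regions were called and which IDR threshold applied is not given in the sources used here. Depth per sample is unknown, and no column was left out.

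Summits of the ce11 lists were placed on the NCBI genome WBcel235 and annotated with Ensembl release 115, in coordinates counted from 1, and gene products and tRNA types were taken from RefSeq. Overlap needed at least 1 bp. Densities were compared with a two-sided exact conditional test and shares with two-sided Fisher's exact tests, with exact 95% intervals and Benjamini-Hochberg adjustment over 7 comparisons at a threshold of 0.05. The scripts were tested on simulated data. Python 3.11.15, numpy 2.4.6, pandas 2.3.3, scipy 1.17.1 and matplotlib 3.10.9 were used.

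The members, gene lists and tests were chosen with earlier results of these data known. The rule named all optimal regions of the arm, up to 4 members of each list with the strongest promoter summit (2 where the list had no optimal summit), the 3 densest 20 kb windows and 3 regions on each side of the boundary. The widest gaps, the tRNA genes without a region and the motif GTTCNANNC were chosen after their values were seen. Alternatives were other boundaries, list depths, distances, overlaps, single replicates and the ce10 lists.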

Additional observations from a re-analysis of the deposited data

How the results depend on the processing

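Of 55 alternative settings over the 7 comparisons, 44 kept direction and side of the threshold. Pooled density lost its call among the 10000 strongest regions (ratio 1.04) and reversed among the 3000 strongest (0.701). Optimal density lost its call among the 456 strongest optimal regions (0.807) and, in an alternative chosen after seeing the data, per base not soft-masked (0.672). The E-box odds ratio lost its call among the 10000 strongest (0.770) and passed among the 3000 strongest (0.456), where the promoter odds ratio was 0.384. The short RNA share passed at a boundary of 16 Mb (0.379), and reversed among the 10000 strongest (1.02) and 3000 strongest (1.61). The replicate share passed with the 10000 strongest (0.644) or 3000 strongest regions (0.501) of each replicate list, or with an overlap of at least 50% of the region (0.816). The settings by strongest regions cut the replicate lists only and kept all pooled regions as the denominator. The cause of these changes was not tested. With a single replicate in place of the pooled list, ratios ranged from 1.14 to 1.22 for pooled density. They were 0.666 to 0.685 for promoters, 0.613 to 0.789 for short RNA genes and 0.715 to 0.766 for E-boxes. In place of the optimal list stood the 912 strongest regions of that replicate, with density ratios of 0.492 to 0.498. As a share of the replicate's own list they gave odds ratios of 0.401 to 0.425. For the replicate share the pooled list was kept and overlap with 1 replicate was counted, at 0.929 to 0.995. Without the regions at short RNA genes, the ratio of optimal density was 0.367. No paired analysis was possible because the study has a single group. Unknown depth leaves the precision of every signal value unstated.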
